A study of Mus musculus with 8 samples.

Results

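Sfmbt2 is a protein-coding gene on mouse chromosome 2 whose 11th intron carries one of the largest microRNA clusters of the mouse genome. The genes described here are all genes annotated between positions 10370510 and 10595253 of chromosome 2 (mm10, GENCODE M21) that had 10 or more counts in at least 2 of the 8 libraries. They number 37 of the 43346 genes listed in the count tables: Sfmbt2 itself (ENSMUSG00000061186.11) and 36 microRNA genes. The members were chosen by this count minimum and by position, and the locus was picked with earlier results of these data known.

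The libraries hold total RNA of mouse embryonic stem cells, sequenced with strand information, 2 for each of 4 groups. The first group was TRIM71-/-, a knockout of an RNA-binding protein of early embryos. The second was homozygous for a mutated Mbnl1 3'UTR, and the third carried a stable transfection of MBNL1::T2A::Puromycin; Mbnl1 is a splicing regulator. The reference was the parental line, called wild type here. All 4 groups share the 129xC57BL/6 background and the Rosa26Cre-ERT2/BirA-V5 alleles, and per the labels' protocols they were grown on gelatin with serum and LIF. The labels do not say whether a line is 1 clone, which promoter drives the MBNL1 construct, or whether replicate libraries were grown apart. The p-values therefore rest on the spread between these libraries only, which may be technical.

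SFMBT2 belongs to the MBT-domain proteins, readers of methylated histones, and its fly relative works with the DNA-binding factor Pleiohomeotic to recruit Polycomb repressors. The gene is imprinted, expressed from the paternal allele in extraembryonic tissue, and is needed for trophoblast growth. The microRNAs of its intron, of the families miR-297, miR-466, miR-467 and miR-669, are processed from the same primary transcript and act in placental development. Many are rich in GU or AC repeats.

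Members of these families that lie outside the locus show this repeat character. The 8 of 10 listed relatives with an entry in RefSeq's mature microRNAs (GRCm38.p6) are printed 5′ to 3′ to show what the families look like, with the seed, bases 2 to 8, in capitals. All 8 seeds differ.
miR-466j: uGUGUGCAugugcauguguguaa
miR-466k: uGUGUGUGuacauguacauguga
miR-466i-3p: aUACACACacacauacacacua
miR-466q: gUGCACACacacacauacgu
miR-467f: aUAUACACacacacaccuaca
miR-467g: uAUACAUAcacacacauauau
miR-467h: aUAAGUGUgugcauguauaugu
miR-669n: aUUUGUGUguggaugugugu
None of these 8 genes lies on chromosome 2. Of the 10 relatives, 8 had 0 counts in every library, and no relative exceeded 1 count in a library. Counts of genes with these family names thus came almost wholly from the Sfmbt2 locus.

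The interval holds 119 annotated microRNA genes beside Sfmbt2, all on its strand and all in intron 11 of the annotated Sfmbt2 transcript with the most exons (23). The intron runs from 10461473 to 10523944, and none of the microRNA genes overlaps a Sfmbt2 exon. They spread over 52.993 kb (10465287 to 10518279), and each is 73 to 127 bases long. In the count tables, 107 of them have a row. Of these, 78 had a count in some library, 36 met the minimum and 42 stayed below it. The other 29 were at 0 in all 8 libraries, where a count of 0 allows up to 3 counts, or 0.0347 to 0.0400 CPM (counts scaled by library size) at these depths.

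The genes at 0 sat together. They lay within 19.678 kb in the middle of the intron (10483678 to 10503355), where 14 other genes had a count. Of the 29 genes at 0, 28 have the same annotated sequence as another annotated gene, against 10 of the 78 with a count and 1 of the 36 that met the minimum, Gm26092. The median identity to the closest other gene of the locus was 100% for those at 0 and 92.9% for those that met the minimum (range 70.2 to 100%). How the counting treated reads that match several places is not given in the sources used here, and its part in the zeros was not tested. Close copies may share reads, so values of single microRNA genes of the cluster are uncertain.

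**Figure D1:**
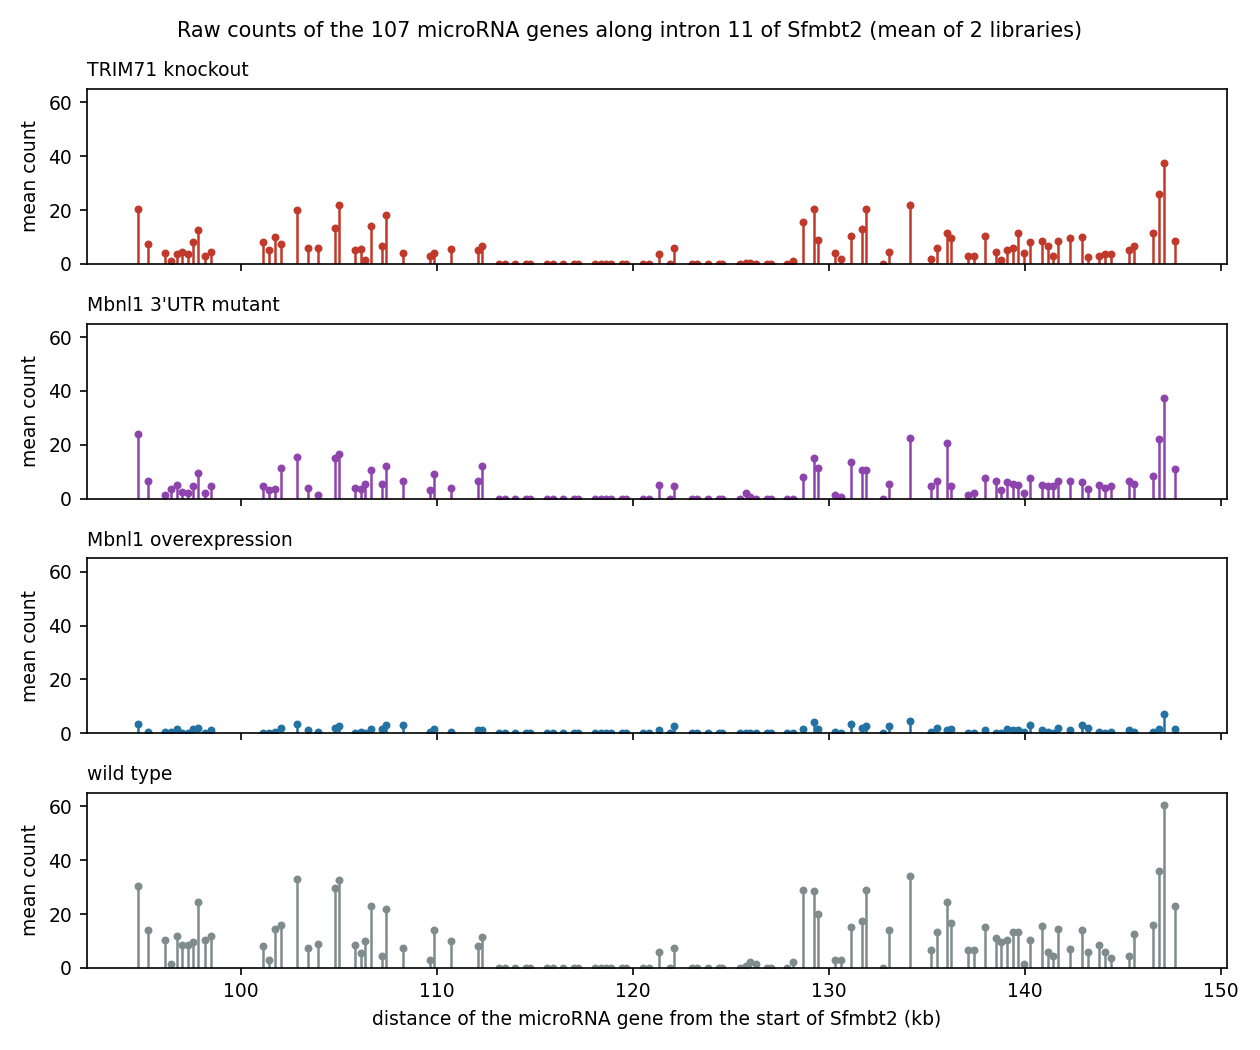
Raw counts (mean of 2 libraries, vertical axis) of the 107 listed microRNA genes against their distance from the start of Sfmbt2 in kb, 1 panel per group with a shared vertical scale. Mir669i, near the far end, is the highest stem in every group, the 29 genes at 0 lie in the mostly empty middle stretch, and the stems of the Mbnl1 overexpression group are the shortest.

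In libraries of total RNA these counts are fragments of RNA from the intron on the strand of Sfmbt2, spliced out or unspliced, and not mature microRNAs, which are too short for such libraries. Antisense reads were kept apart: noncoding genes inside highly counted genes had a median of 0.101 counts per kb when on the opposite strand (542 genes) and 45.1 when on the same strand (722 genes). Sfmbt2's own count pools its isoforms, some of which end before the cluster.

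Total counts per library ranged from 75056306 to 86508533. Trim71 was at 101 and 105 CPM in TRIM71 knockout libraries, against 630 and 628 CPM in wild type; all CPM are scaled by TMM. Mbnl1 was at 48.8 and 50.9 CPM in TRIM71 knockout, 28.6 and 27.4 CPM in the 3'UTR mutant, 193 and 195 CPM in overexpression, and 25.9 and 26.1 CPM in wild type. The Mbnl1 difference between the 3'UTR mutant and wild type did not pass the test (adjusted p = 0.086). Of 7 stem cell markers, all detected in every group, none were called lower. In the knockout 6 were called higher, in the 3'UTR mutant 5 and in overexpression 5. The shares of all tested genes called higher were 24.2%, 8.32% and 27.7% in that order. The 7 markers summed to 4632 to 4657 CPM in the knockout and 4036 to 4141 in the mutant. They summed to 4179 to 4188 in overexpression and 3694 to 3700 in wild type. Their part in the Sfmbt2 values was not tested. Nanog had log2 fold changes of 0.94 in TRIM71 knockout, 0.11 in the 3'UTR mutant and 0.27 in overexpression. Klf4 averaged 221 CPM in the knockout, 185 in the mutant, 296 in overexpression and 129 in wild type, and Pou5f1 stayed within 1117 to 1263 CPM in all 8 libraries. Correlations of log CPM within groups were 0.995 to 0.997, against 0.977 to 0.993 between groups. Over the 18055 genes tested, the median log2 fold change was -0.01 in each of the 3 comparisons against wild type, which share the wild-type libraries.

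Sfmbt2 was lower in all 3 altered lines than in wild type, by the most in Mbnl1 overexpression. It had 2463 and 2324 counts in TRIM71 knockout libraries, 3165 and 3175 in 3'UTR mutant libraries, 714 and 766 in overexpression libraries, and 4943 and 4284 in wild-type libraries. In CPM the means were 28.5 ± 0.333 in the knockout, 38.4 ± 0.160 in the mutant, 8.39 ± 0.605 in overexpression and 59.7 ± 4.11 in wild type (SD, n = 2 each). No 2 groups overlapped, and every neighbouring pair in the order overexpression, knockout, mutant, wild type differed by more than its spread. In bulk samples, fewer cells that express a gene and less RNA of it per cell cannot be told apart.

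In TRIM71 knockout, Sfmbt2 fell 2.10-fold relative to wild type (log2 fold change -1.07, SE 0.0529; edgeR's quasi-likelihood test with Benjamini-Hochberg adjustment over all genes, adjusted p = 3.87e-11). In the Mbnl1 3'UTR mutant it fell 1.56-fold (log2 -0.64, SE 0.0520, adjusted p = 1.51e-07). In Mbnl1 overexpression it fell 7.12-fold (log2 -2.83, SE 0.0590, adjusted p = 3.05e-16). The order of the 3 lines was tested directly. Overexpression was 4.57-fold below the mutant (log2 -2.19, adjusted p = 2.02e-14). The knockout was 1.35-fold below the mutant (log2 -0.43, adjusted p = 3.35e-06) and 3.39-fold above overexpression (log2 1.76, adjusted p = 1.31e-13). Exact permutation of the labels of 2 libraries a group leaves 0.333 as the smallest two-sided p, and the tests therefore come from the model fitted across genes.

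**Figure D2:**
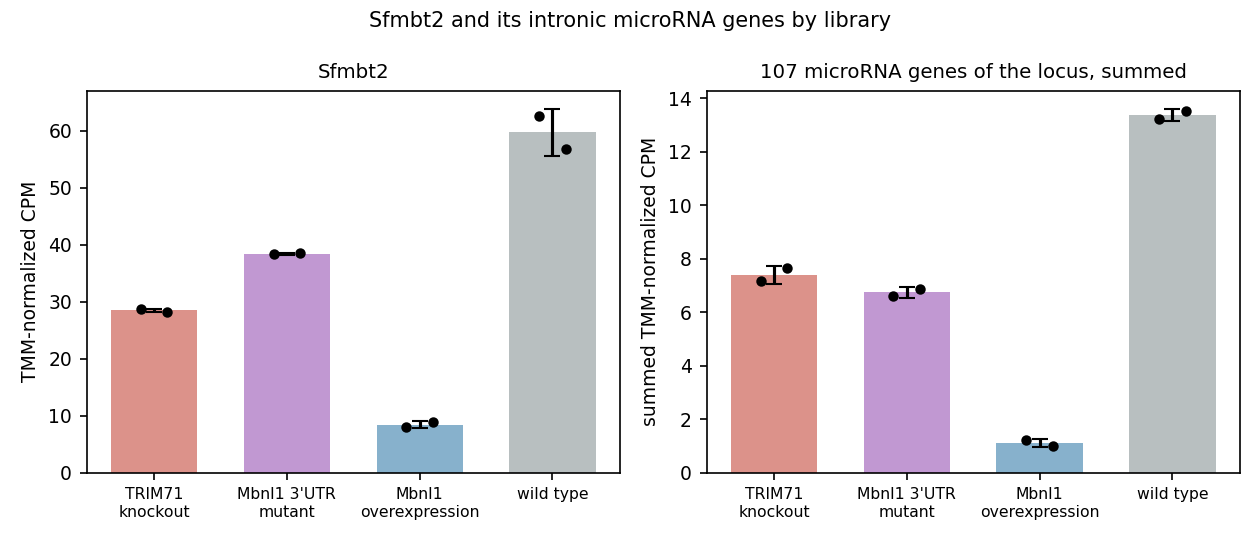
TMM-normalized CPM of Sfmbt2 (left) and of the 107 microRNA genes of its intron summed (right) by group; bars are means, error bars SD and points the 2 libraries. All 3 altered lines lie below wild type in both panels, and the knockout lies below the mutant for Sfmbt2 but above it for the intron.

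The microRNA genes of the intron were lower in sum in the same 3 lines, and by the most in Mbnl1 overexpression. The 107 listed genes together had 614 and 629 counts in TRIM71 knockout libraries, 546 and 568 in the 3'UTR mutant, 109 and 88 in overexpression, and 1043 and 1021 in wild type. In CPM the sums were 7.39 ± 0.343 in the knockout, 6.74 ± 0.201 in the mutant, 1.11 ± 0.143 in overexpression and 13.4 ± 0.231 in wild type (SD, n = 2 each). Every library of the 3 altered lines lay below both wild-type libraries. Because this sum takes all listed genes, the count minimum had no part in it. As a score over chosen genes it has no test.

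Relative to wild type, the intronic sum stood at 55.3% in TRIM71 knockout, 50.4% in the 3'UTR mutant and 8.33% in Mbnl1 overexpression. Sfmbt2 stood at 47.6% (95% interval 46.0 to 49.3) in the knockout, 64.2% (62.2 to 66.3) in the mutant and 14.0% (13.3 to 14.8) in overexpression. The intervals are exact and cover counting error only. The intronic sum, as a share of wild type, was above its host in the knockout and below it in both Mbnl1 lines.

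The same values per library are the microRNA gene counts per 100 Sfmbt2 counts. The ratio was 24.9 and 27.1 in TRIM71 knockout libraries, 17.3 and 17.9 in 3'UTR mutant libraries, 15.3 and 11.5 in overexpression libraries, and 21.1 and 23.8 in wild-type libraries. Both knockout libraries lay above both wild-type libraries, and all 4 libraries of the 2 Mbnl1 lines lay below them. The knockout averaged 26.0 ± 1.51 and wild type 22.5 ± 1.93 (SD, n = 2 each), and the exact 95% interval of knockout replicate 1 (22.8 to 27.2) overlapped that of wild-type replicate 2 (22.2 to 25.5). The mutant averaged 17.6 ± 0.452 and overexpression 13.4 ± 2.67. No interval of an Mbnl1 line reached that of a wild-type library (highest bound 19.6, lowest wild-type bound 19.7). These intervals cover counting error only, so the gap does not measure how far the lines stand apart. Over all genes, libraries of a group differed beyond counting error (chi-square per degree of freedom 22.4 in the mutant, 9.43 in overexpression and 28.3 in wild type).

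**Figure D3:**
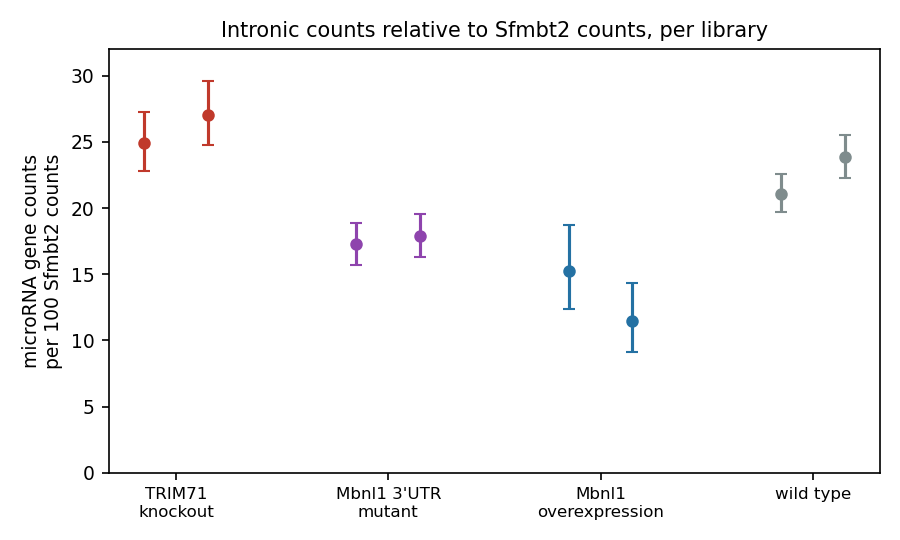
Counts of the 107 intronic microRNA genes per 100 counts of Sfmbt2 in each library, with exact 95% intervals for counting error. The 2 TRIM71 knockout libraries lie at 24.9 and 27.1, the 4 libraries of the Mbnl1 lines between 11.5 and 17.9, and the wild-type libraries at 21.1 and 23.8.

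Sums of stretches along the intron gave like shares of wild type. The 32 listed genes nearest to the start of Sfmbt2 summed to 54.1% of wild type in the knockout, 49.2% in the 3'UTR mutant and 7.64% in overexpression. The 37 genes in the middle, which include the stretch at 0, summed to 53.5%, 44.7% and 9.45% in the same order of groups. The 38 genes farthest from the start summed to 56.6%, 52.5% and 8.69%.

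By family, the 20 genes named miR-669 summed to 51.6% of wild type in the knockout, 45.1% in the 3'UTR mutant and 7.31% in overexpression. The 20 miR-466 genes stood at 47.4%, 50.7% and 8.30% in the same order, and the 14 miR-467 genes at 50.4%, 49.1% and 9.30%. The 5 miR-297 genes stood at 65.8%, 52.9% and 4.15%. Both small families rested on few counts: miR-297 had 16 and 43 in the mutant libraries and 4 and 1 in overexpression, and miR-467 had 8 and 2 in overexpression. The miR-297 share was 77.2% in the mutant without mutant replicate 1 and 28.6% without mutant replicate 2. In overexpression it was 1.70% and 6.60% without overexpression replicate 1 and replicate 2. The miR-467 share was 3.81% and 14.8% in overexpression without the same libraries. The 48 genes that carry only a provisional Gm name stood at 58.6%, 53.4% and 9.28%. All 5 name groups were lowest in overexpression.

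Most single genes of the cluster had few counts. Across the 36 that met the minimum, the lowest, median and highest counts were 3, 11 and 42 in knockout replicate 1 and 3, 10.5 and 33 in replicate 2. They were 0, 10 and 43 and 0, 10.5 and 32 in the 2 mutant libraries, and 0, 2 and 7 and 0, 1 and 7 in the overexpression libraries. In wild type they were 8, 18.5 and 61 and 6, 17 and 60. Sfmbt2 reached 10 counts in some library of all 4 groups. Of the microRNA genes, 20 did so in 3 groups, 12 in 2 groups, and 4 in wild type only: Mir669f, Mir466p, Gm25263 and Mir466l. Those 4 had to be higher in wild type to be members at all.

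At the edge of the minimum, 4 members had a second-highest count of 10 or 11 and 17 genes outside had one of 8 or 9. Mir669m-1, just inside, had 12 and 7 counts in the knockout, 3 and 10 in the 3'UTR mutant, 1 and 1 in overexpression, and 8 and 6 in wild type. Mir297c, just outside, had 4 and 5 counts in the knockout, 4 and 9 in the 3'UTR mutant, 0 and 0 in overexpression, and 8 and 14 in wild type.

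In Mbnl1 overexpression, all 37 members, Sfmbt2 included, were called lower than wild type and none higher, where 27.2% of all tested genes were called lower and 27.7% higher. Fold changes ran from log2 -4.86 to -1.96, with a median of -3.55 against -0.01 over all genes tested. All 37 had both overexpression libraries below both wild-type libraries, where 38.8% of all tested genes did. Without the 4 genes that reached 10 counts in wild type only, the count was 33 of 33. No microRNA member reached 10 counts in an overexpression library (highest 7). The microRNA genes of this subset thus also met the minimum through the other groups only, and it does not free the comparison from the minimum. The members overlap in source, since one transcript can carry the whole cluster, so they are not 37 separate measurements. Of the 36 microRNA genes, 31 kept the call whichever library was left out; Mir669f, Mir669a-2, Gm22925, Mir669m-1 and Mir669m-2 did not, and DESeq2 did not call Gm22925 and Mir669m-1.

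In TRIM71 knockout, 12 of the 37 members were called lower and none higher, where 20.9% of all tested genes were called lower and 24.2% higher. They were Sfmbt2, Mir669d, Mir669f, Mir669h, Mir669i, Mir669k, Mir466o, Gm22051, Gm25316, Gm25451, Gm26073 and Gm26156. Mir669f reached 10 counts in wild type only, and without the 4 such genes 11 of 33 were called lower. The log2 fold change was negative in 36 of 37, with a median of -0.84 against -0.01 over all genes. In 33 both knockout libraries lay below both wild-type libraries, as in 36.3% of all tested genes. The count depended on single libraries and on the tool: it was 2 without knockout replicate 1, 3 without knockout replicate 2, 5 without wild-type replicate 1, 4 without wild-type replicate 2, and 1, Sfmbt2, with DESeq2. None of the 11 microRNA genes kept its call whichever library was left out.

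In the Mbnl1 3'UTR mutant, 9 of the 37 were called lower and none higher, where 7.69% of all tested genes were called lower and 8.32% higher. They were Sfmbt2, Mir669d, Mir669i, Gm22678, Gm23542, Gm25753, Gm26073, Gm26156 and Gm26491. Of the 37, 4 reached 10 counts in wild type only and had to be higher there to be members. Without them 9 of 33 were called lower, with a median log2 fold change of -1.02. In 26 of those 33 both mutant libraries lay below both wild-type libraries. All 37 had a negative log2 fold change, with a median of -1.07 against -0.01 over all genes. In 30 both mutant libraries lay below both wild-type libraries, as in 27% of all tested genes. The count was 5 without mutant replicate 1, 3 without wild-type replicate 1, 4 without wild-type replicate 2, and 1 with DESeq2, which gave 35 of the 37 no adjusted p. Of the 8 microRNA genes, Gm26156 alone kept its call whichever library was left out.

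Between the altered lines, 28 members were called lower in overexpression than in the 3'UTR mutant (25.4% of all tested genes), and 33 higher in the knockout than in overexpression (27.5%). Sfmbt2 alone was called between the knockout and the mutant, lower in the knockout (21.3% of all tested genes). The median log2 fold change of the 36 microRNA genes in that last comparison was 0.25, toward higher values in the knockout.

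Mir669i (ENSMUSG00000080657.1, chromosome 2, 10517604 to 10517730) was the most counted gene of the cluster and lies at its far end. It had 42 and 33 counts in the knockout, 43 and 32 in the 3'UTR mutant, 7 and 7 in overexpression, and 61 and 60 in wild type. No altered library reached a wild-type one. Its log2 fold change was -0.81 in the knockout (SE 0.236, adjusted p = 0.00923), -0.79 in the 3'UTR mutant (SE 0.236, adjusted p = 0.0299) and -3.28 in overexpression (SE 0.324, adjusted p = 1.36e-07). The knockout call was lost without knockout replicate 2 (adjusted p = 0.0946) and with DESeq2 (adjusted p = 0.0944). The mutant call was lost without mutant replicate 2, without either wild-type replicate (adjusted p = 0.106 to 0.165 in edgeR's test) and with DESeq2 (adjusted p = 0.192). Per kb of annotated length it averaged 281 counts over the 8 libraries, beside 299 for the exons of Sfmbt2. Fragments that only overlap the edge of so short a gene may be counted, which raises a per-length level.

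Gm24806 lies just before Mir669i (10517337 to 10517426). It had 27 and 25 counts in the knockout, 27 and 17 in the 3'UTR mutant, 2 and 1 in overexpression, and 34 and 38 in wild type. Its groups did not overlap with wild type, but only overexpression passed the test (log2 -4.66, SE 0.526, adjusted p = 7.16e-07), at 3.64% of wild type (95% interval 0.734 to 11.1).

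Gm22072 is the first gene of the cluster (10465287 to 10465407). It had 21 and 20 counts in the knockout, 22 and 26 in the 3'UTR mutant, 4 and 3 in overexpression, and 23 and 38 in wild type. The mutant overlapped wild type, and overexpression alone passed the test (log2 -3.27, SE 0.478, adjusted p = 1.48e-05). Gm26398 had 18 and 26 counts in the knockout, 21 and 24 in the 3'UTR mutant, 6 and 3 in overexpression, and 36 and 32 in wild type. It too passed only in overexpression, at log2 -3.07 (SE 0.431, adjusted p = 9.34e-06).

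Gm26491 had 20 and 24 counts in the knockout, 16 and 17 in the 3'UTR mutant, 4 and 1 in overexpression, and 34 and 31 in wild type. It passed in the mutant (log2 -1.07, adjusted p = 0.0382) and in overexpression (log2 -3.82, adjusted p = 3.36e-06), while the knockout value was log2 -0.68 (adjusted p = 0.0929). Its mutant call was lost without any 1 knockout, mutant or wild-type library, and DESeq2 gave it no adjusted p. Gm26073 passed against wild type in all 3 lines by edgeR. It had 18 and 22 counts in the knockout, 14 and 17 in the 3'UTR mutant, 2 and 5 in overexpression, and 36 and 30 in wild type. Its knockout call (log2 -0.84, adjusted p = 0.0437) was lost with DESeq2 (adjusted p = 0.240) and without any 1 of the 4 knockout and wild-type libraries, and its mutant call without mutant replicate 1 or either wild-type replicate. Gm26156 also passed in all 3 lines by edgeR, with 11 and 20 counts in the knockout, 10 and 6 in the 3'UTR mutant, 1 and 2 in overexpression, and 31 and 27 in wild type. Its log2 fold change was -1.02 in the knockout (adjusted p = 0.0338), -1.94 in the 3'UTR mutant (adjusted p = 0.00393) and -4.35 in overexpression (adjusted p = 6.66e-06). The knockout call was lost with DESeq2 (adjusted p = 0.219) and without knockout replicate 1 or either wild-type replicate, while the mutant call held without any 1 library.

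Of the other genes among the 12 most counted, Gm25753 passed in the mutant and in overexpression (log2 -1.55 and -3.66). Mir669k and Gm22051 passed in the knockout and in overexpression (log2 -1.24 and -3.99 for Mir669k, -1.21 and -4.63 for Gm22051). The knockout calls of Mir669k and Gm22051 were lost with DESeq2 (adjusted p = 0.105 and 0.137) and without either knockout replicate or wild-type replicate 1. The mutant call of Gm25753 was lost without wild-type replicate 2. Gm23571 and Mir669j passed in overexpression only. Gm22051 had 26 and 15 counts in the mutant, against 29 and 20 in wild type. Mir669j had 16 and 20 counts in the knockout, against 31 and 13 in wild type, so that its wild-type libraries stood on either side of the knockout.

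The largest called changes were in genes of low count. For TRIM71 knockout they were Gm25451 (log2 -1.90; 3 and 5 counts, against 9 and 19 in wild type), Mir669f (log2 -1.86; 4 and 3 counts, against 12 and 12) and Mir669h (log2 -1.55; 8 and 9 counts, against 19 and 27). Mir669f reached 10 counts in wild type only, so it had to be higher there to be a member. DESeq2 called none of these knockout changes (adjusted p = 0.116, 0.188 and 0.0742). In the mutant, beside Gm26156, the largest called changes were Gm22678 (log2 -1.94; 4 and 5 counts, against 19 and 14 in wild type) and Gm23542 (log2 -1.70; 6 and 4 counts, against 18 and 13). In overexpression they were Mir297a-4, Mir297a-2 and Gm22677, each with 1 count over the 2 libraries. Mir297a-4 stood there at 2.73% of wild type (95% interval 0.0671 to 16.4), Mir297a-2 at 3.01% (0.0738 to 18.2) and Gm22677 at 3.12% (0.0764 to 18.9).

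**Figure D4:**
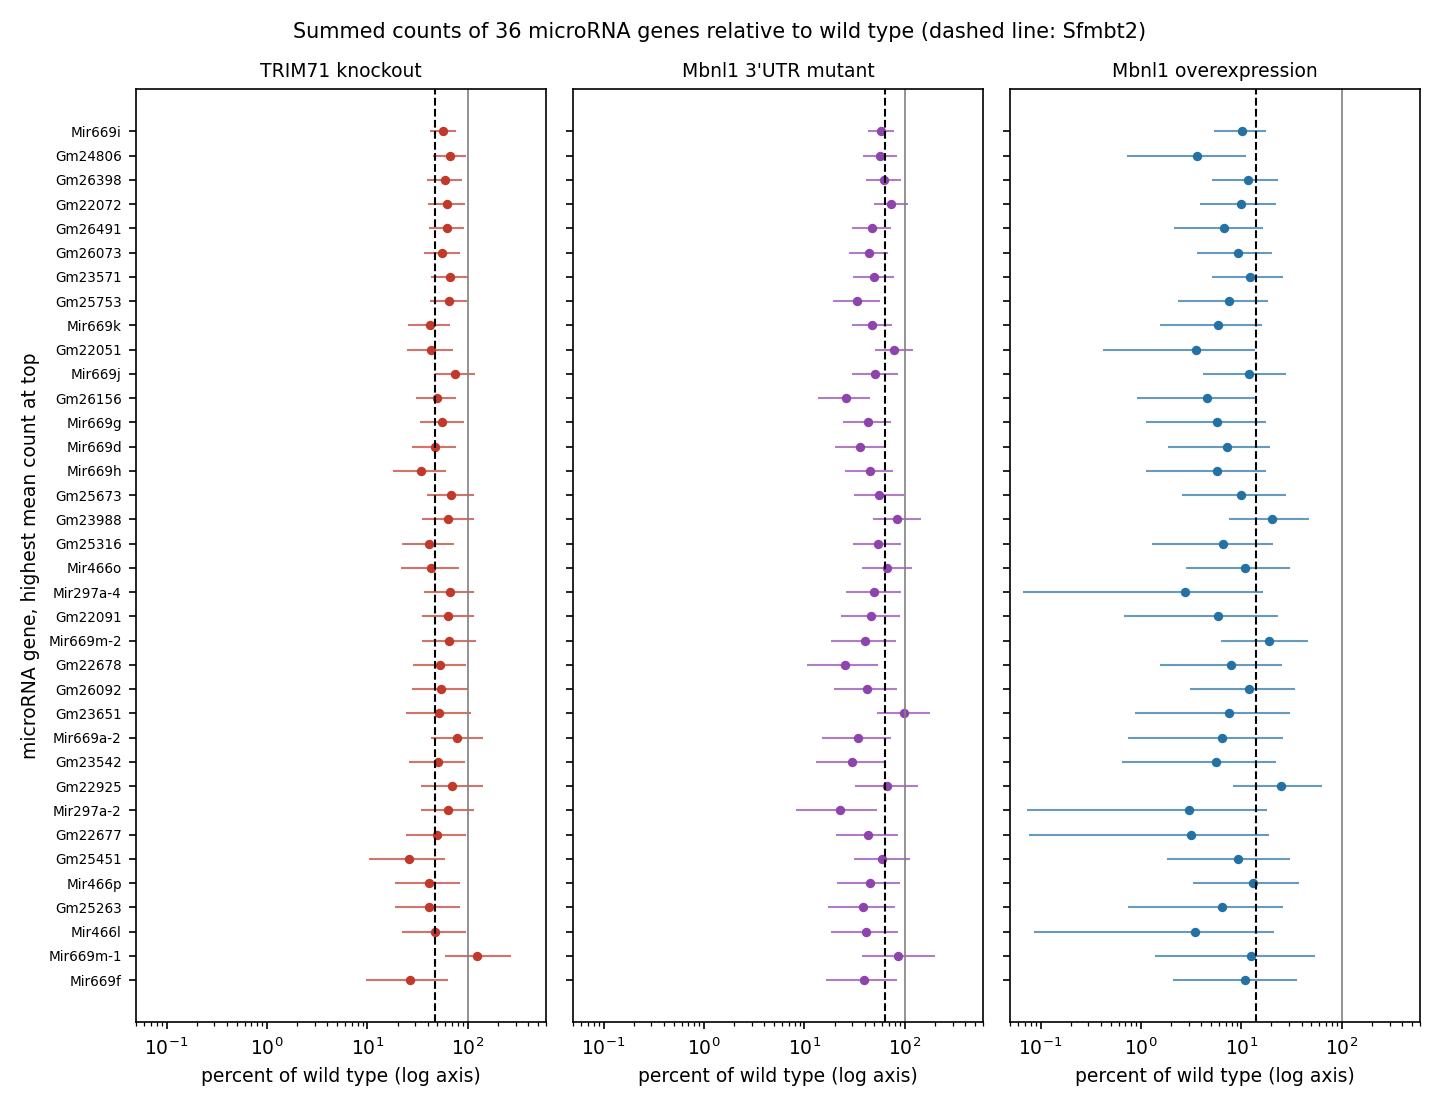
Counts of each of the 36 microRNA genes, summed over 2 libraries and scaled by library, as a percentage of wild type on a log axis, with exact 95% intervals for counting error; the solid line is wild type and the dashed line Sfmbt2. Points cluster around 50% in the left and middle panels, with Mir669m-1 at 125% in the knockout, and all 36 lie at 25.0% or below in Mbnl1 overexpression.

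Other microRNA genes of the genome were set beside the cluster. Of 150 tested ones, 11 were called lower and 1 higher in the knockout. In the mutant 6 were called lower and none higher, and in overexpression 43 lower and 2 higher. Those lower were 7.33%, 4% and 28.7% of the 150 in that order, against 20.9%, 7.69% and 27.2% of all tested genes. The shares of all tested genes called higher were 24.2%, 8.32% and 27.7%. The 36 genes of the cluster had a median log2 fold change of -0.84 in the knockout, against -0.37 for the 150. In the mutant the medians were -1.08 for the cluster and -0.22 for the 150, and in overexpression -3.61 for the cluster and -0.36 for the 150. The 150 had only to be tested, while the 36 were also chosen by the count minimum. Of the 36, 4 met it through wild type alone and had to be higher there. Without them the cluster medians were -0.78 (knockout) and -1.04 (mutant), still below those of the 150. No microRNA member reached 10 counts in an overexpression library, so all 36 met the minimum through other groups. The overexpression medians are therefore not free of this choice.

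Of the neighbouring genes, 1 was also called lower than wild type in all 3 lines: Pfkfb3, a regulator of glycolysis 876 kb beyond the end of Sfmbt2 (log2 -0.97 in the knockout, -0.28 in the 3'UTR mutant and -0.59 in overexpression). Its mutant call was lost with DESeq2 (adjusted p = 0.0622) and without mutant replicate 1 or either wild-type replicate. Of 66 listed genes within 2 Mb on either side, 19 were tested, with a median log2 fold change of -0.18 for the knockout, -0.07 for the mutant and -0.06 for overexpression. None of the 19 had a value as low as that of Sfmbt2 in overexpression, 1 did in the knockout (Itga8, an integrin, log2 -1.19) and 2 in the mutant (Gata3 at -1.14, which passed the test, and Itih5 at -0.82, which did not). Of the 19, 3 were called higher and 6 lower in the knockout, against 24.2% and 20.9% of all tested genes. In the mutant 1 was called higher and 2 lower, against 8.32% and 7.69%. In overexpression 2 were called higher and 5 lower, against 27.7% and 27.2%.

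Within 500 kb, 8 genes were tested, and none of them lies beyond the end of Sfmbt2. Gm13261 is annotated on the opposite strand across the start of Sfmbt2 (10339283 to 10374041). It had 17 and 32 counts in the knockout, 20 and 11 in the 3'UTR mutant, 5 and 6 in overexpression, and 27 and 18 in wild type. It passed only in overexpression (log2 -2.20, SE 0.514, adjusted p = 0.00146), with log2 0.00 in the knockout (adjusted p = 0.996) and -0.63 in the mutant (adjusted p = 0.359).

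Itih5, which encodes a hyaluronan-binding protein, is the next coding gene before Sfmbt2. It had 139 and 156 counts in the knockout, 9 and 6 in the 3'UTR mutant, 13 and 10 in overexpression, and 13 and 12 in wild type. It was called higher in the knockout (log2 3.43, SE 0.251, adjusted p = 6.10e-09), opposite to Sfmbt2, and at log2 -0.31 in overexpression it did not pass. Gata3, a trophoblast transcription factor, was called higher in the knockout (log2 1.19, adjusted p = 0.00173) and lower in the 3'UTR mutant (log2 -1.14, adjusted p = 0.0396) and in overexpression (log2 -1.82, adjusted p = 0.000767). The mutant call was lost with DESeq2 (adjusted p = 0.123) and without mutant replicate 1, knockout replicate 2 or either wild-type replicate. Its counts were low, with 61 and 78 in the knockout, 11 and 16 in the 3'UTR mutant, 6 and 12 in overexpression, and 29 and 27 in wild type. Taf3, Atp5c1 and Kin, genes of general transcription, ATP synthase and DNA repair, had log2 fold changes between -0.21 and 0.08 in the 3 comparisons. By edgeR all 3 genes were called lower in the knockout (adjusted p = 0.00890, 0.0168 and 0.0185). Atp5c1 and Kin were also called lower in overexpression (adjusted p = 3.58e-05 and 0.0331), and none passed in the mutant. Each knockout call was lost without some single library, as was the overexpression call of Kin, which DESeq2 did not make either. The low-count genes C630004M23Rik and Gm23608 passed in none of the 3 comparisons.

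**Figure D5:**
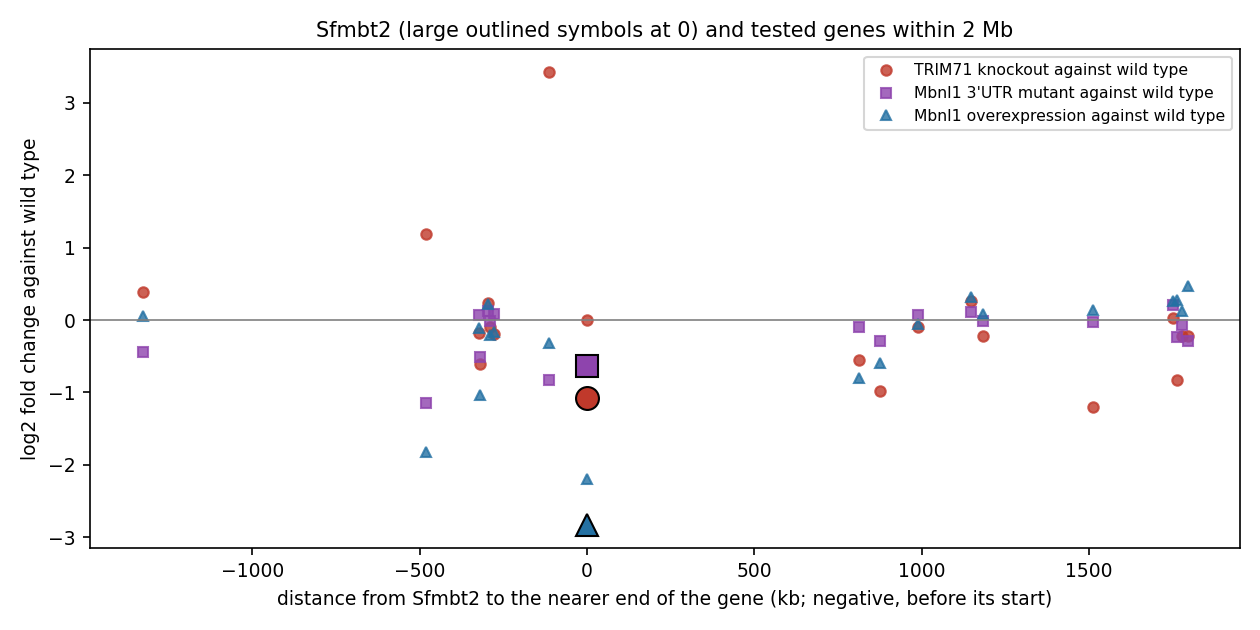
Log2 fold change against wild type (vertical axis) of Sfmbt2 and the 19 tested genes within 2 Mb, by distance from Sfmbt2 in kb; red circles are TRIM71 knockout, purple squares the Mbnl1 3'UTR mutant and blue triangles Mbnl1 overexpression. No neighbour reaches the large triangle of Sfmbt2 at -2.83, and Itih5 in the knockout lies at 3.43.

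Among genes with the protein domains of Sfmbt2, 9 of 10 in a list of MBT-domain genes were tested, a list that includes Sfmbt2. In the knockout 2 were called higher and 6 lower, against 24.2% and 20.9% of all tested genes. In the mutant none were called higher and 2 lower, against 8.32% and 7.69%. In overexpression 2 were called higher and 6 lower, against 27.7% and 27.2%. Sfmbt2 had the lowest adjusted p of the list in each comparison with wild type. Its closest paralog Sfmbt1 fell slightly in the knockout (log2 -0.24, adjusted p = 0.000286) and did not pass in the mutant (log2 0.02) or in overexpression (log2 0.09). Sfmbt1 averaged 30.5 ± 1.37 CPM in the knockout, 36.7 ± 0.0226 in the mutant, 38.3 ± 1.12 in overexpression and 36.1 ± 0.143 in wild type (SD, n = 2 each). L3mbtl2, a subunit of a variant Polycomb complex, fell in the knockout (log2 -0.26) and in overexpression (log2 -0.36). Scmh1, a Polycomb component, fell in the mutant (log2 -0.61) and in overexpression (log2 -0.70) and rose in the knockout (log2 0.27). L3mbtl3 fell in overexpression (log2 -0.57).

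Of 33 Polycomb components and partners, all tested, 13 were called higher and 10 lower in the knockout, against 24.2% and 20.9% of all tested genes. In the mutant 8 were called higher and 3 lower, against 8.32% and 7.69%. In overexpression 14 were called higher and 9 lower, against 27.7% and 27.2%. The median log2 fold change of the 33 was 0.05 or closer to 0 in each comparison. Yy1, the mammalian relative of Pleiohomeotic and a known partner of SFMBT2, rose by log2 0.24 in the knockout and 0.13 in overexpression, and did not pass in the mutant (log2 0.11, adjusted p = 0.13). Suz12, a core subunit of PRC2, rose in the knockout (log2 0.66) and in overexpression (log2 0.38). Kdm2b, which brings PRC1 to CpG islands, fell in the knockout (log2 -0.54) and in overexpression (log2 -0.42) and rose in the mutant (log2 0.31).

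Sfmbt2 is one of the genes imprinted through histone H3K27 methylation, and 6 such genes were tested. In the knockout 1 was called higher and 4 lower, against 24.2% and 20.9% of all tested genes. In the mutant 3 were called each way, against 8.32% higher and 7.69% lower. In overexpression none were called higher and 5 lower, against 27.7% and 27.2%. Sfmbt2 is included throughout. Sall3, a zinc finger gene, averaged 6.67 ± 0.351 CPM in the knockout, 14.2 ± 0.683 in the mutant, 4.67 ± 0.657 in overexpression and 10.4 ± 0.434 in wild type (SD, n = 2 each). It thus fell in the knockout (log2 -0.64) and in overexpression (log2 -1.16) and rose in the mutant (log2 0.45). Slc38a4, an amino acid transporter, rose in the knockout (log2 0.12) and fell in the 3'UTR mutant (log2 -0.24) and in overexpression (log2 -0.38). Jade1 fell in the knockout (log2 -0.24) and rose in the mutant (log2 0.18), and Gab1 rose in the mutant (log2 0.13) and fell in overexpression (log2 -0.46). Smoc1 fell in all 3 lines, as Sfmbt2 did, with log2 -0.38 in the knockout (adjusted p = 0.0452), -0.68 in the mutant (adjusted p = 0.00440) and -1.80 in overexpression (adjusted p = 6.12e-08).

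Genes that process microRNAs were measured in the same libraries. Of 14 tested, 2 were called higher and 6 lower in the knockout, against 24.2% and 20.9% of all tested genes. In the mutant 0 were called by edgeR or by DESeq2 (1 at an unadjusted p under 0.05). There 8.32% of all tested genes were called higher and 7.69% lower by edgeR. In overexpression 2 were called higher and 6 lower, against 27.7% and 27.2%. Lin28a, an RNA-binding protein that blocks let-7 maturation, fell in the knockout (log2 -0.56) and in overexpression (log2 -0.49). Prkra was called higher in both of these lines. Ago1 rose in the knockout (log2 0.28) and fell in overexpression (log2 -0.12). Ago2 fell in the knockout (log2 -0.39) and rose in overexpression (log2 0.45). Drosha, the nuclease that cuts primary transcripts, was at log2 -0.07 in the knockout (adjusted p = 0.152), -0.08 in the 3'UTR mutant (adjusted p = 0.214) and -0.35 in overexpression (adjusted p = 9.20e-07). Its partner Dgcr8 was at log2 0.00 in the knockout, 0.03 in the mutant, and fell by 0.11 on the log2 scale in overexpression (adjusted p = 0.0147). Their part in the counts of the cluster was not tested.

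Sfmbt2 is a gene of extraembryonic lineages, so markers of these were counted. Of 11 trophoblast markers, 7 were tested. In the knockout 3 were called higher and 4 lower, against 24.2% and 20.9% of all tested genes. In the mutant none were called higher and 3 lower, against 8.32% and 7.69%. In overexpression none were called higher and 6 lower, against 27.7% and 27.2%. The 11 markers summed to 61.7 to 63.0 CPM in the knockout and 24.1 to 25.3 in the mutant. They summed to 18.1 to 18.5 in overexpression and 34.8 to 37.8 in wild type. Prl3d1 and Tpbpa, which define trophoblast giant cells and spongiotrophoblast, were at 0 in all 8 libraries. Tfap2c, which carried most of the sum, rose in the knockout (log2 0.94) and fell in the 3'UTR mutant (log2 -0.64) and in overexpression (log2 -1.16).

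Of 7 primitive endoderm markers, 1 was called higher and 6 lower in the knockout, against 24.2% and 20.9% of all tested genes. In the mutant 4 were called higher and 1 lower, against 8.32% and 7.69%. In overexpression 1 was called higher and 6 lower, against 27.7% and 27.2%. The 7 markers summed to 24.5 to 25.0 CPM in the knockout and 46.4 to 53.4 in the mutant. They summed to 21.4 to 24.3 in overexpression and 33.7 to 37.0 in wild type. Gata4 fell in the knockout (log2 -3.49) and in overexpression (log2 -0.69) and rose in the mutant (log2 0.60). Foxa2, an endoderm transcription factor, went the other way: it had 17.8 and 18.0 CPM in the knockout, most of the knockout sum, 1.55 and 1.72 in the mutant, 0.636 and 0.576 in overexpression, and 4.26 and 2.94 in wild type. It rose in the knockout (log2 2.31) and fell in the mutant (log2 -1.14) and in overexpression (log2 -2.57). Sox7 was the marker called higher in overexpression, and it was also called higher in the mutant and lower in the knockout. The median log2 fold change of the 7 was -2.84 in the knockout.

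Sfmbt2 was lower in all 3 lines. The trophoblast sum, most of it Tfap2c, was above wild type in the knockout and below it in both Mbnl1 lines. The median log2 fold change of the tested trophoblast markers was negative in all 3 lines. The endoderm sum was above wild type in the mutant and below it in the other two lines. Of 8 fibroblast and feeder markers, 5 were tested. In the knockout 3 were called higher and none lower, against 24.2% and 20.9% of all tested genes. In the mutant 1 was called each way, against 8.32% higher and 7.69% lower. In overexpression 3 were called higher and 2 lower, against 27.7% and 27.2%. The 8 markers summed to 8.62 to 9.37 CPM in the knockout and 5.25 to 5.55 in the mutant. They summed to 7.76 to 8.38 in overexpression and 4.93 to 5.29 in wild type. Thy1, Col1a1 and Pdgfrb rose in the knockout (log2 0.96, 1.21 and 0.51) and in overexpression (log2 0.78, 0.74 and 0.93). Col3a1 and Col1a2 were called lower in overexpression. In the mutant Thy1 was called higher and Col3a1 lower. Postn, Dcn and Lum were under 0.1 CPM in every group. The part of these cells in the Sfmbt2 values was not tested.

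Among the genes whose pattern over the 8 libraries was most like that of Sfmbt2 were Tnks2, Adk, Tdrd12 and Hltf, out of 12779 genes of 1 CPM or more on average. Their Pearson correlations of log2 CPM with Sfmbt2 were 0.997 for each of them. The points fall into 4 groups, so the values describe an order of group means. Tdrd12, a germline piRNA gene, averaged 21.6 CPM in the knockout, 24.1 in the mutant, 10.4 in overexpression and 30.5 in wild type. Tnks2 had the same order over a narrower range, with 575 CPM in the knockout, 595 in the mutant, 476 in overexpression and 643 in wild type.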

How the data were processed

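RNA was sequenced as stranded total RNA libraries with 75 nt paired-end reads, and aligned to mm10 with STAR 2.5.0, per the labels' protocols and the submitters' processing notes. The deposited values are the authors' raw counts of reads for each gene, not normalized. Neither the annotation release nor the strand setting of the counting is given in the sources used here. All 43346 listed rows name a gene. Genes were placed by GENCODE M21 identifiers without version (42462 matched).

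In R 4.3.3, edgeR 4.0.16 kept 18055 genes (filterByExpr), scaled libraries by TMM and fitted 1 robust quasi-likelihood model to all 4 groups (4 residual degrees of freedom). P-values were adjusted by Benjamini-Hochberg over all tested genes and called under 0.05. The script was tested on simulated data. Alternatives were DESeq2 1.42.0, other scalings and filters, fits to 2 groups, a replicate block and leaving out each library.

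The locus, its members and the gene lists were chosen with earlier results of these data known. Named in the text are Sfmbt2, the 12 most counted microRNA genes, the 3 largest called changes per comparison with wild type, tested genes within 500 kb, up to 4 called genes per list by adjusted p, and the 5 genes most like Sfmbt2, of which 1 is not reported here; Itga8, Pfkfb3, Yy1, Sfmbt1, Dgcr8 and genes at the edge of the minimum were added after their values were seen. The labels do not say what the replicate numbers mark. Replicate differences correlated at -0.0343 to 0.0600 across genes between groups, so no shift shared by replicate number was seen. Whether libraries of the same number were handled together cannot be told from these values. The chi-square per degree of freedom between libraries of a group was 6.07 in the knockout, 22.4 in the mutant, 9.43 in overexpression and 28.3 in wild type, where counting error alone gives 1.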

Additional observations from a re-analysis of the deposited data

How the results depend on the processing

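No alternative changed the direction or the call of Sfmbt2 in any of the 6 comparisons; the highest adjusted p was 0.000167, for the knockout against the mutant. Leaving out 1 library at a time gave 2 to 11 called members in the knockout, 3 to 9 in the mutant and 33 to 37 in overexpression. With a mean of at least 1 CPM required, the count was 1 in each comparison with wild type, because Sfmbt2 was then the only member tested. With DESeq2 it was 1 for the knockout, 1 for the mutant and 35 for overexpression. With the replicate number as a block the counts were 10, 9 and 37 in the order knockout, mutant, overexpression, and with no filter the mutant had 11. The alternative without genes that reached 10 counts in wild type only was chosen after seeing the data and gave 11, 9 and 33 in that order. Without Mir669i the intronic counts per 100 Sfmbt2 counts were 24.4 in the knockout, 16.4 in the mutant, 12.4 in overexpression and 21.1 in wild type. A sum over microRNA genes with a mean of 50 or more counts was not run, since the highest mean was 35.6.

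For the named microRNA genes, the tested neighbours within 500 kb, Pfkfb3, Sfmbt1, Trim71 and Mbnl1, a call was lost in 62 of 768 values with 1 library left out and in 16 of 573 under other settings, and gained in 9 and 6; adjusted p-values that DESeq2 left out are not counted. Leaving out 1 library at a time, 11 of 11 called microRNA genes lost the call at least once in the knockout, 7 of 8 in the mutant and 5 of 36 in overexpression; with DESeq2 11, 1 (with 7 given no adjusted p) and 2 did, in that order. The 768 and 573 values include those not called with all libraries, which had no call to lose, so they give no rate of loss among calls. Signs that reversed belonged to values that had passed no test with all libraries. Leaving out 1 library at a time, Mir669j in the knockout lay between log2 -0.87 and 0.31, Gm23608 between -0.50 and 0.72, and Gm13261 between -0.55 (without knockout replicate 2) and 0.42; without wild-type replicate 2 Gm13261 was at -0.23. In the mutant, C630004M23Rik lay between -1.33 and 0.012, Gm23608 between -0.86 and 0.70, and Kin between -0.016 and 0.18. Atp5c1 in the mutant was at 0.00039 with DESeq2's size factors and with its test. The cause was not tested. Depth limits single microRNA genes: in overexpression their median was 2 and 1 counts per library.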
